A study of Mus musculus with 12 samples.

Results

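BH3-only genes encode small proteins that start the mitochondrial route of apoptosis. The 9 genes described here are *Bcl2l11* (BIM), *Bid*, *Bbc3* (PUMA), *Bad*, *Bmf*, *Pmaip1* (NOXA), *Hrk*, *Bnip3* and *Bnip3l* (NIX). They were taken by an exact match of the gene name, which found each of the 9 once among the 55487 genes of the deposited gene table. Of the 9, 8 passed a filter on low values and were tested, and *Hrk* did not.

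The values come from RNA-seq of whole mouse retina in 12 libraries, 2 for each of 6 groups. WT retinas came from C57BL/6J mice. sh*Pax6* retinas carried an AAV2.7m8 vector in which a U6 promoter drives a short hairpin RNA against *Pax6* and GFP marks infection, and by the study's account the vector was given to wild-type mice at 2 months of age. JNK3 KO retinas came from *Jnk3*-/- mice, which lack the kinase JNK3 in every cell. In each genotype the eye had been injected with 40 nmol of N-methyl-D-aspartate (NMDA, 40 mM in 1 µL), an agonist that kills retinal ganglion cells (RGCs) through overactive glutamate receptors, or with the same volume of PBS. Age was not labelled, and the interval to collection is not given in the sources used here. By the study's methods each library was made from RNA of more than 3 retinas. The labels name the 2 libraries of a group only by number, so the p-values below measure the spread between these libraries, which may be technical. No library from retinas given a control hairpin was analysed here, so in sh*Pax6* retinas infection and knockdown cannot be told apart.

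A BH3-only protein acts through its BH3 motif, a short helix that fits a groove on BCL2 proteins. The activators BIM, BID and PUMA can turn on BAX and BAK1, which open the outer mitochondrial membrane and let cytochrome c out. The sensitizers BAD, BMF, NOXA and HRK mainly occupy the guardians BCL2, BCL-XL and MCL1 and so free the activators. BNIP3 and NIX have an atypical BH3 motif and are better known as mitophagy receptors, which hand damaged mitochondria to the autophagy machinery. In neurons, *Bcl2l11*, *Bbc3* and *Hrk* are known targets of JNK and c-Jun signalling, *Bbc3* and *Pmaip1* are classical p53 targets, and *Bnip3* and *Bnip3l* are hypoxia targets. Many of these proteins are also regulated by phosphorylation or cleavage, which mRNA does not show.

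The stretch that codes for the BH3 motif is what makes the 9 genes a family, and it is shown for 8 of them. In the coding sequence of each main transcript, the one with the highest mean level, a leucine followed after 3 residues by glycine, alanine or serine and then aspartate was found exactly 1 time in all 9. The 42 bases run 5′ to 3′ on the sense strand with 4 codons on each side, and the capitals mark the codons of that leucine and that aspartate.
Bcl2l11: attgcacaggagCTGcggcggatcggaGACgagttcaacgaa
Bid: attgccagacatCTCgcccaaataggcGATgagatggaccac
Bbc3: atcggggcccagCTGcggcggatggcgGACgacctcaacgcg
Bad: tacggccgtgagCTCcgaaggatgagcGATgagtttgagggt
Bmf: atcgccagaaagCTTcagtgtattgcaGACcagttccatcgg
Hrk: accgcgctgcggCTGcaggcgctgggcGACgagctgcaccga
Bnip3: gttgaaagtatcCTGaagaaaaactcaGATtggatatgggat
Bnip3l: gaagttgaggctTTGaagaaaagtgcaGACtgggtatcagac
The codon after the aspartate is one for tryptophan (tgg) in *Bnip3* and *Bnip3l*, whereas it encodes glutamate (gag) in *Bcl2l11*, *Bid*, *Bad* and *Hrk*, aspartate (gac) in *Bbc3* and glutamine (cag) in *Bmf*. The motif lies 40.2% of the way along the coding sequence in *Hrk* and 82.7% in *Bmf*, with the other 6 between these values.

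Promoters are shown for *Bnip3*, *Bcl2l11* and *Bmf*, since these 3 genes responded to NMDA or to the vector and since the RefSeq start in each lay 0 or 1 base from that of the main transcript. Each run holds the 250 bases before the RefSeq start, in GRCm38.p6, read 5′ to 3′ on the strand of the gene. Both strands were searched for the E-box CACGTG, the hypoxia response core ACGTG (which the E-box contains), the AP-1 site TGACTCA, the cyclic AMP response element TGACGTCA, the forkhead site GTAAACA and the GC box GGGCGG. Capitals mark an E-box in *Bnip3* and a forkhead match in *Bcl2l11*, and *Bmf* held none of the 6 motifs.
Bnip3: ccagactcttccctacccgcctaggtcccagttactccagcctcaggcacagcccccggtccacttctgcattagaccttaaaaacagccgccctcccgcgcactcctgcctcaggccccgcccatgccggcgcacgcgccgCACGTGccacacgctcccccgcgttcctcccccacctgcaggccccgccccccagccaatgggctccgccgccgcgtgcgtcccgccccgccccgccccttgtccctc
Bcl2l11: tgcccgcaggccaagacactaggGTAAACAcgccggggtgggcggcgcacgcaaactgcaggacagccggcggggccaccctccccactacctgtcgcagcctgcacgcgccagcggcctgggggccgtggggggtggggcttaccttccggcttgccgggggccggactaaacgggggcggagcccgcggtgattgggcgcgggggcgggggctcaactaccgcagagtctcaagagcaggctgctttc
Bmf: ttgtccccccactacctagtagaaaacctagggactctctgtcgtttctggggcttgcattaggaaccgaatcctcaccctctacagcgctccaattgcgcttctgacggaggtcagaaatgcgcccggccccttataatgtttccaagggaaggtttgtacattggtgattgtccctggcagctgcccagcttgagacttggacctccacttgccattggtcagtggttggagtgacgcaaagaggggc
The *Bnip3* run lies on the minus strand at chr7:138909507-138909756, holds the E-box 108 bases before the start and also has 6 GC boxes. The *Bcl2l11* run lies on the plus strand at chr2:128125788-128126037, with the forkhead match 227 bases before the start and 3 GC boxes. The *Bmf* run lies on the minus strand at chr2:118549687-118549936. G and C make up 72.4% of the *Bnip3* run, 72% of the *Bcl2l11* run and 54.0% of the *Bmf* run, against a median of 52.4% over 32817 RefSeq promoters. Of those promoters, 6.02% held the E-box, 16.6% the hypoxia core, 4.46% the AP-1 site, 1.55% the cyclic AMP response element, 3.16% the forkhead site and 32.7% the GC box. A match in a window of this length describes the letters only, and no binding was measured here.

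Levels are given in FPKM, a fragment count scaled to transcript length and library size, and are those of each library in the order replicate 1, replicate 2. Differences are log2 fold changes of FPKM + 0.1 from 1 limma model of the 6 groups, with their standard error (SE) and a Benjamini-Hochberg adjusted p over all 16471 genes tested. A gene was called where that p was under 0.05.

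The labels were checked first on their own genes. In sh*Pax6* PBS libraries *Pax6* had 94.6 and 92.8 FPKM, against 173 and 177 in those of WT PBS (-0.90, SE 0.069, adjusted p = 6.04e-05). *Mapk10*, which encodes JNK3, had 9.47 and 8.75 FPKM in JNK3 KO PBS against 42.8 and 50.7 in WT PBS (-2.34, SE 0.36, adjusted p = 0.0215), so it was lower and not absent. In sh*Pax6* PBS it was at 20.9 and 21.3 (-1.14, adjusted p = 0.0634). After NMDA *Pax6* was at 67.5 and 58.7 FPKM in sh*Pax6* and at 55.4 and 53.8 in WT retinas. *Mapk10* was at 6.65 and 13.8 in JNK3 KO NMDA and at 8.98 and 6.00 in WT NMDA. Neither gene thus set its genotype below WT after NMDA. The WT NMDA libraries stood apart from the other 10. Their values summed to 805627 and 820180 FPKM over all genes, against 541210 to 576922 elsewhere, and across genes their response to NMDA fell with spliced length, from a median of 0.84 under 1 kb to -1.07 over 4 kb. Every result below that uses WT NMDA rests on these libraries. Their part in it is given for the BH3-only genes, whereas WT values of related genes and markers are given without a length correction.

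The BH3-only genes covered a wide range of levels. In WT PBS retinas *Bnip3* (103 and 104 FPKM) and *Bnip3l* (95.5 and 89.3) were highest and did not overlap with each other. *Bad* followed at 18.6 and 22.9, then *Bmf* at 6.41 and 6.36 and *Bcl2l11* at 4.86 and 4.85. *Bid* (2.78 and 3.06) lay above *Bbc3* (2.32 and 1.47), and *Pmaip1* was at 0.77 and 0.88. *Hrk* (ENSMUSG00000046607, chr5:118164648-118189478, plus strand), known from neurons, was between 0.05 and 0.50 FPKM in all 12 libraries, with its highest values, 0.50 and 0.26, in sh*Pax6* PBS. No group mean of *Hrk* reached 1 FPKM, so it was not tested.

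**Figure D1:**
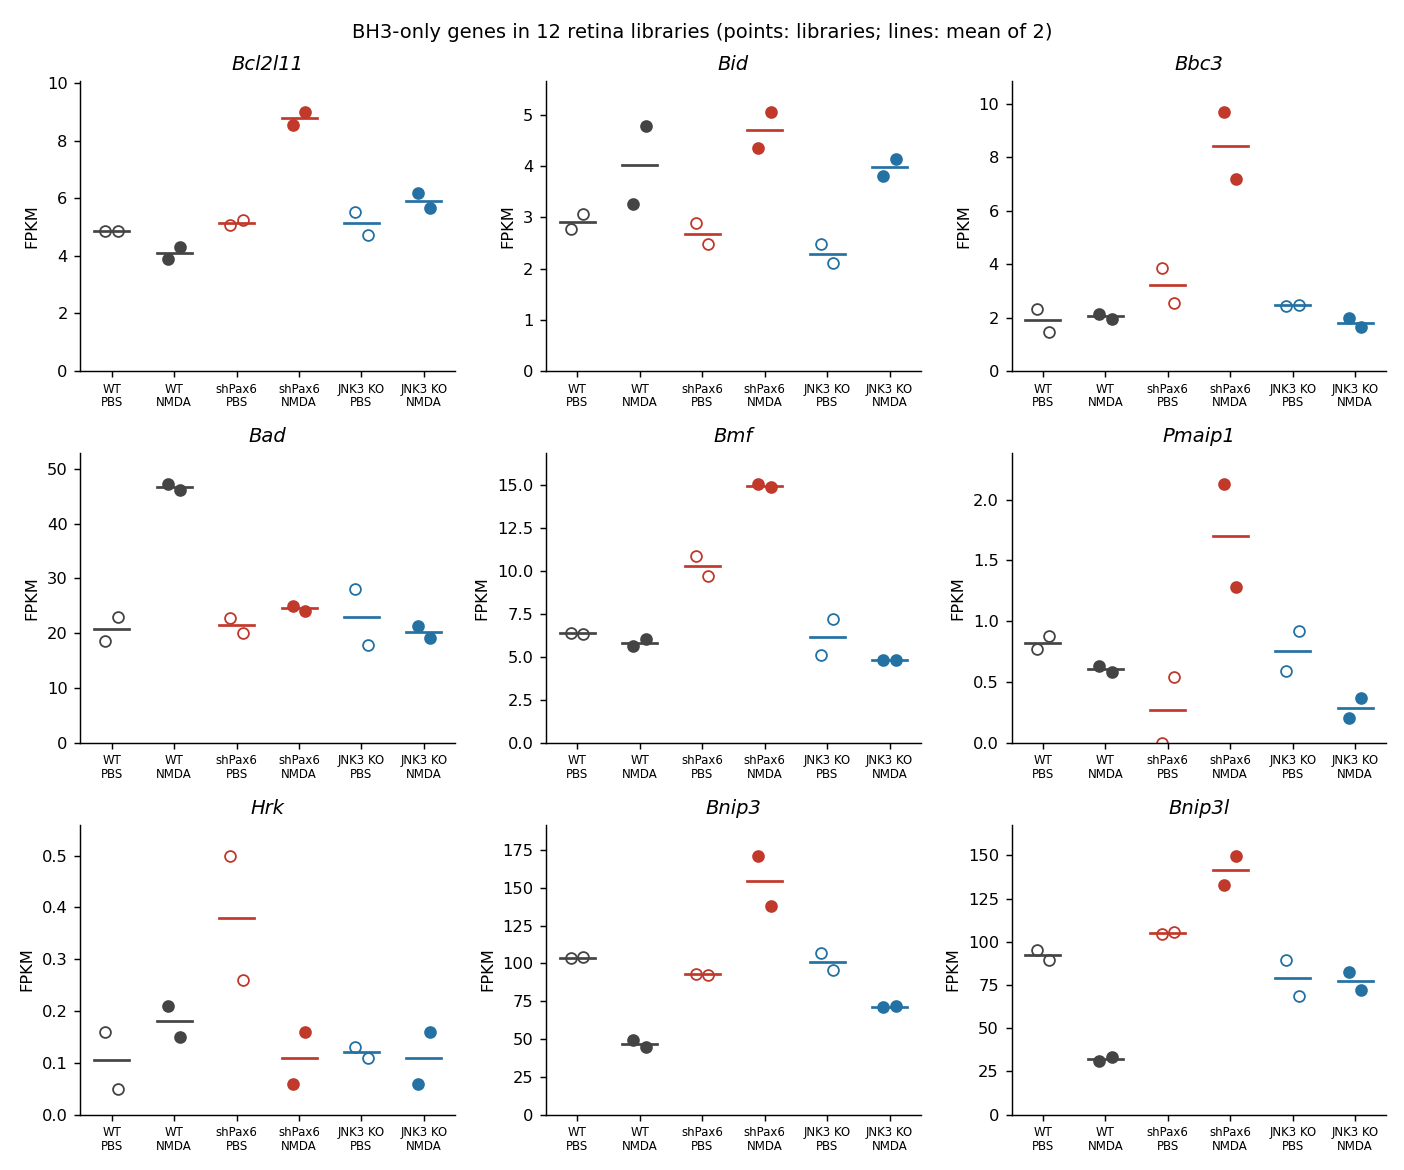
Level of each of the 9 BH3-only genes in FPKM (vertical axis, starting at 0, with its own range for each gene) in the 6 groups of retinas. Points are the 2 libraries of a group, open for PBS and filled for NMDA, and lines are their means. The sh*Pax6* NMDA libraries are the highest of all 12 for *Bcl2l11*, *Bbc3*, *Bmf*, *Pmaip1*, *Bnip3* and *Bnip3l*, and the WT NMDA libraries are the highest for *Bad* and the lowest for *Bnip3* and *Bnip3l*.

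NMDA was followed by different changes in the 3 kinds of retina. In WT retinas *Bad* rose and *Bnip3* and *Bnip3l* fell, in sh*Pax6* retinas 7 of the 8 genes tested rose, and in JNK3 KO retinas *Bnip3* fell and no member rose. In WT retinas 1 of 8 was called higher, where 26.0% of all genes were, and 2 of 8 lower, where 33.8% were, so neither share is set apart from the background. In sh*Pax6* retinas 7 of 8 were called higher against 19.1% of all genes, and 0 of 8 lower against 11.0%. In JNK3 KO retinas 0 of 8 were called higher against 4.33%, and 1 of 8 lower against 6.10%. The median log2 fold change of the 8 genes was -0.18 in WT (-0.094 over all genes), 0.74 in sh*Pax6* (0.098) and -0.23 in JNK3 KO (-0.015). The 7 calls in sh*Pax6* include *Pmaip1*, which passed the filter only through its sh*Pax6* NMDA libraries and so is no support for this count. The count of 7 was 4 without any one of the 4 sh*Pax6* libraries, where 24.3% to 33% of all genes were called in either direction, 4 by 75th percentile scaling (29.6%) or quantile normalization (29.7%) and 0 with the spread of the compared libraries alone (5.93%), against 30.2% of all genes in the fit reported. These 3 comparisons have no libraries in common, though they share 1 estimate of the spread.

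*Bcl2l11* (ENSMUSG00000027381, chr2:128126038-128162547, plus strand, in GRCm38) encodes BIM, which binds all guardians and can activate BAX directly. It was at 5.08 and 5.24 FPKM after PBS and at 8.56 and 9 after NMDA in sh*Pax6* retinas. The groups did not overlap, and the rise was 1.69-fold (log2 0.76, SE 0.14, adjusted p = 0.00371). In WT retinas it went from 4.86 and 4.85 to 3.91 and 4.32 (-0.24, SE 0.14, adjusted p = 0.183), which did not pass. JNK3 KO retinas held 5.52 and 4.74 after PBS and 6.19 and 5.65 after NMDA (0.21, SE 0.14, adjusted p = 0.434). The 2 sh*Pax6* NMDA libraries lay above all other 10.

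*Bid* (ENSMUSG00000004446, chr6:120891930-120916853, minus strand) encodes the activator that caspase-8 cleaves, and so links death receptors to mitochondria. Its PBS levels were 2.78 and 3.06 FPKM in WT, 2.89 and 2.48 in sh*Pax6* and 2.48 and 2.11 in JNK3 KO, and its NMDA levels were 3.26 and 4.78, 4.36 and 5.06, and 3.82 and 4.15. In each genotype both NMDA libraries lay above both PBS libraries. The difference was called in sh*Pax6* retinas (0.79, SE 0.22, adjusted p = 0.0266), a call lost without either replicate 2 (0.101 and 0.0881) and by 75th percentile scaling, quantile normalization or the length correction (0.0503 to 0.0917), whereas WT (0.42, SE 0.22, adjusted p = 0.133) and JNK3 KO (0.77, SE 0.22, adjusted p = 0.0615) did not pass. With both WT NMDA libraries left out, a setting chosen after seeing the data, the JNK3 KO difference kept its size and its adjusted p was 0.0415. The responses of WT and sh*Pax6* retinas were not shown to differ (WT minus sh*Pax6* -0.36, 95% interval -1.08 to 0.35, adjusted p = 0.367).

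*Bbc3* (ENSMUSG00000002083, chr7:16308393-16318205, plus strand) encodes PUMA, which binds every guardian. It went in sh*Pax6* retinas from 3.86 and 2.56 FPKM after PBS to 9.68 and 7.16 after NMDA, a 2.60-fold rise (log2 1.38, SE 0.29, adjusted p = 0.00678). In WT retinas the values were 2.32 and 1.47 after PBS and 2.13 and 1.96 after NMDA, and the groups overlapped (0.14, SE 0.29, adjusted p = 0.718). JNK3 KO retinas held 2.43 and 2.48 and then 1.99 and 1.63 (-0.43, SE 0.29, adjusted p = 0.429). All 4 sh*Pax6* libraries exceeded the 8 libraries of the other genotypes.

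*Bad* (ENSMUSG00000024959, chr19:6941861-6951899, plus strand) encodes a sensitizer held inactive in the cytosol by 14-3-3 proteins when phosphorylated. In WT retinas it rose from 18.6 and 22.9 FPKM to 47.2 and 46.0, a 2.26-fold change (log2 1.17, SE 0.19, adjusted p = 0.000549). The other 8 libraries lay between 17.8 and 28 FPKM, and neither sh*Pax6* (0.19, SE 0.19, adjusted p = 0.484) nor JNK3 KO retinas (-0.15, SE 0.19, adjusted p = 0.715) passed. The main transcript of *Bad* has 990 nt, and the 652 genes within 10% of that length had a median log2 fold change of 0.98 in WT. Once the trend on length had been removed from each library (the length correction below), the WT value of *Bad* was 0.29 (adjusted p = 0.217) and no longer passed.

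*Bmf* (ENSMUSG00000040093, chr2:118528757-118549687, minus strand) encodes a sensitizer tethered to the myosin motor complex through dynein light chain DYNLL2. It was the BH3-only gene called before injury, at 6.41 and 6.36 FPKM in WT PBS and 10.9 and 9.70 in sh*Pax6* PBS (0.68, SE 0.16, adjusted p = 0.0216). After NMDA, sh*Pax6* retinas showed a further rise to 15.1 and 14.9 (0.54, SE 0.16, adjusted p = 0.0335). WT NMDA (5.63 and 6.02) and JNK3 KO NMDA (4.85 and 4.85) libraries lay below their PBS libraries, and the differences of -0.13 and -0.32 did not pass (adjusted p = 0.518 and 0.278). The call before injury was lost without either WT PBS library or without sh*Pax6* PBS replicate 1 (adjusted p 0.104 to 0.111), and the call after NMDA without any of the 4 sh*Pax6* libraries (0.0580 to 0.129).

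*Pmaip1* encodes NOXA, which chiefly neutralizes MCL1. The sh*Pax6* libraries held 0 and 0.54 FPKM of it after PBS and 2.13 and 1.28 after NMDA (2.79, SE 0.77, adjusted p = 0.0239). One PBS library is listed at 0, so the size of this change depends on the pseudocount. Without sh*Pax6* PBS replicate 1 it was 1.45 (adjusted p = 0.0758), and without NMDA replicate 1 it was 2.45 (adjusted p = 0.114). The other 8 libraries lay between 0.20 and 0.92 FPKM, and neither WT (-0.39, SE 0.77, adjusted p = 0.697) nor JNK3 KO retinas (-1.16, SE 0.77, adjusted p = 0.416) passed.

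*Bnip3* (ENSMUSG00000078566, chr7:138890836-138909519, minus strand), the more abundant of the mitophagy receptors, changed in all 3 genotypes. In WT retinas it fell from 103 and 104 FPKM to 49.0 and 44.9, that is to 0.453 times the PBS level (log2 -1.14, SE 0.099, adjusted p = 9.38e-06). In JNK3 KO retinas it fell from 107 and 95.4 to 71.0 and 71.7 (-0.50, SE 0.099, adjusted p = 0.0142), a call lost without PBS replicate 1, NMDA replicate 1 or NMDA replicate 2 (adjusted p 0.0922 to 0.114). It rose in sh*Pax6* retinas from 93.3 and 92.3 to 171 and 138 (0.73, SE 0.099, adjusted p = 0.000644). The PBS levels of the 3 genotypes lay between 92.3 and 107, with the WT and JNK3 KO NMDA libraries all below this range and the sh*Pax6* NMDA libraries above it. In WT retinas the 1285 genes within 10% of the length of *Bnip3* had a median of 0.41, of the opposite sign.

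*Bnip3l* (ENSMUSG00000022051, chr14:66985239-67008877, minus strand) encodes NIX, the mitophagy receptor known for clearing mitochondria from maturing red cells and from ganglion cells during retinal development. It fell in WT retinas from 95.5 and 89.3 FPKM to 31.1 and 33.6, to 0.351 times the PBS level (-1.51, SE 0.12, adjusted p = 6.89e-06). The gene rose in sh*Pax6* retinas from 104 and 106 to 133 and 150 (0.43, SE 0.12, adjusted p = 0.0298), a call lost without any of the 4 sh*Pax6* libraries (adjusted p 0.0558 to 0.149). In JNK3 KO retinas it held 89.8 and 68.6 after PBS and 82.4 and 71.95 after NMDA, with the groups overlapping (-0.027, 95% interval -0.31 to 0.25, adjusted p = 0.948). A pseudogene, *Bnip3l-ps*, is also listed, and how reads shared with it were divided is not known, so the level of *Bnip3l* is uncertain to that extent.

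**Figure D2:**
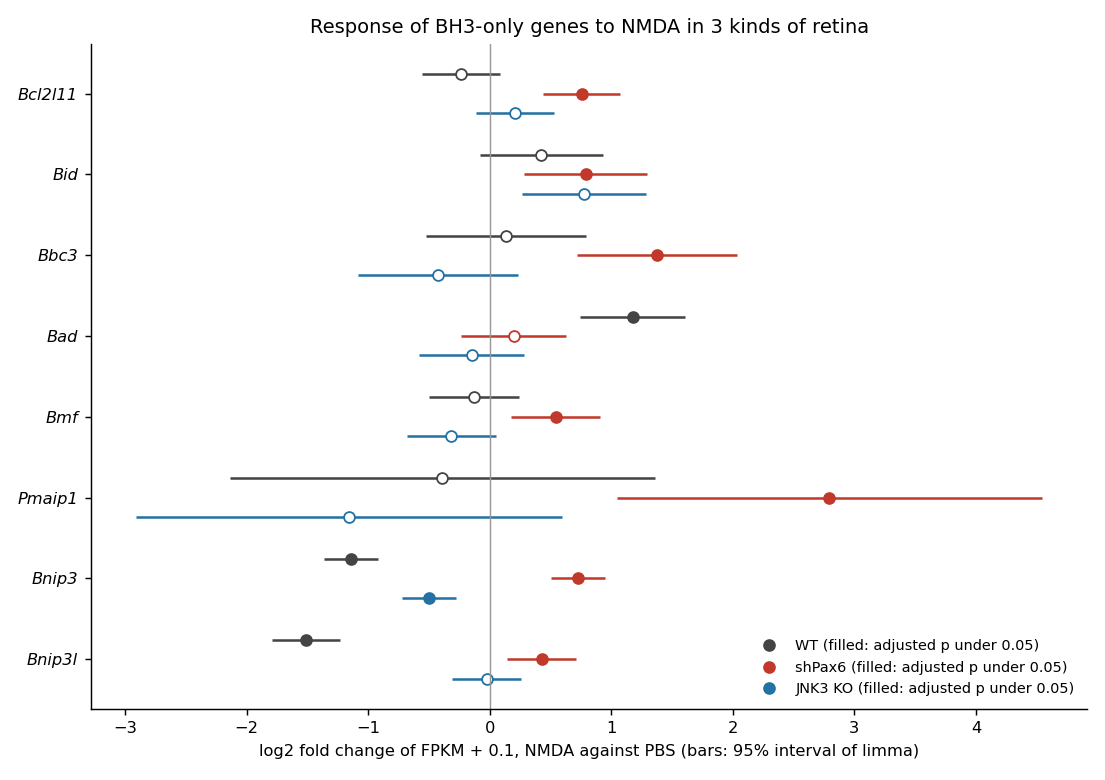
Log2 fold change of FPKM + 0.1, NMDA against PBS (horizontal axis), of the 8 BH3-only genes tested, in WT, sh*Pax6* and JNK3 KO retinas. Points are limma estimates from 2 libraries a group, filled where the adjusted p was under 0.05, and bars are unadjusted 95% intervals. In sh*Pax6* retinas 7 points are filled and lie above 0, while the filled WT points are *Bad* above 0 and *Bnip3* and *Bnip3l* below it. Of the 7, *Pmaip1* passed the filter only through sh*Pax6* NMDA and so is no support for this count.

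Whether the response itself differed between genotypes was tested as the difference of the log2 fold changes. Between WT and sh*Pax6* retinas 7 of 8 genes differed. *Bad* responded more in WT (0.98, SE 0.27, adjusted p = 0.0146), 1 of 8 where 18.3% of all genes did so. The other 6 of 8, *Bcl2l11*, *Bbc3*, *Bmf*, *Pmaip1*, *Bnip3* and *Bnip3l*, responded less in WT or in the opposite direction, where 31.4% of all genes did so. *Pmaip1*, which passed the filter only through sh*Pax6* NMDA, is no support for this count. Of these, *Bnip3* (-1.87, SE 0.14, adjusted p = 1.25e-05) and *Bnip3l* (-1.94, SE 0.18, adjusted p = 3.39e-05) turned direction, and *Bcl2l11* differed by -0.99 (SE 0.20, adjusted p = 0.00301). The calls of *Bbc3*, *Bmf* and *Pmaip1* (adjusted p 0.0324 to 0.0373) were each lost when 1 of several libraries was left out. The call of *Bad* was lost without WT PBS replicate 1 (adjusted p = 0.0643), sh*Pax6* PBS replicate 1 (0.0513) or sh*Pax6* NMDA replicate 2 (0.0518), and by TPM, where every library is rescaled to the same sum (0.171). With protein-coding transcripts only, the difference of *Bnip3l* was -0.71 (adjusted p = 0.000763). After the length correction 3 of the 7 differences passed, those of *Bbc3*, *Bnip3* and *Bnip3l*, and the difference of *Bcl2l11* was -0.056 (adjusted p = 0.855).

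Between WT and JNK3 KO retinas 3 of 8 genes differed in response. *Bad* responded more in WT (1.32, SE 0.27, adjusted p = 0.00280), 1 of 8 against 23.5% of all genes, and lost the call after the length correction (0.32, adjusted p = 0.374). *Bnip3* fell further in WT (-0.64, SE 0.14, adjusted p = 0.00392) and *Bnip3l* fell in WT and was not called in JNK3 KO (-1.48, SE 0.18, adjusted p = 0.000106), 2 of 8 against 27.9%. With protein-coding transcripts only, the difference of *Bnip3l* was -0.47 (adjusted p = 0.00691). After the length correction *Bmf* differed by 1.09 (adjusted p = 0.00480), against 0.19 (adjusted p = 0.536) without it. For *Bcl2l11* the difference was -0.44 (95% interval -0.89 to 0.012, adjusted p = 0.0961). Both differences of response use the same WT libraries.

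Before injury few BH3-only genes were called between genotypes, which with 2 libraries a group does not show that they were alike. Between sh*Pax6* PBS and WT PBS, *Bmf* was called higher, 1 of 8 against 5.36% of all genes, and 0 of 8 were lower against 11.2%. *Bbc3* (3.86 and 2.56 against 2.32 and 1.47 FPKM, without overlap) had an adjusted p of 0.127 by limma, and *Pmaip1* (0 and 0.54 against 0.77 and 0.88) one of 0.143. Their unadjusted p values by limma were 0.0324 and 0.0390. With protein-coding transcripts only, a setting chosen after seeing the data, *Bbc3* was called (1.04, adjusted p = 0.0218). Between JNK3 KO PBS and WT PBS limma called 0 of 8 genes, against 1.10% of all genes higher and 0.407% lower, and no member had an unadjusted p under 0.05 (the lowest, of *Bnip3l*, was 0.0910). The median difference of the 8 genes was 0.070 for sh*Pax6* (-0.064 over all genes) and -0.057 for JNK3 KO (0 over all genes).

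The length trend of the WT NMDA libraries bears on each member by its own length. *Bcl2l11* (5036 nt) and *Bmf* (4642 nt) have the longest main transcripts of the genes tested, and genes within 10% of their lengths had WT medians of -0.97 and -0.84. Their own values, -0.24 and -0.13, lay above these medians, and after the length correction they were 0.69 and 0.69 and both passed (adjusted p = 0.00391 and 0.00586). *Bnip3l* (3238 nt) lay below its neighbours (-0.39), as *Bnip3* did. The length match and the length correction of *Bnip3l* used 3238 nt, although transcripts of 789 and 354 nt also made up its WT PBS level. Its 3238 nt transcript alone changed by -0.29 in WT, which is not below -0.39. The medians at the lengths of the 8 genes lay in sh*Pax6* retinas between -0.031 and 0.24, and 7 members lay above them. *Pmaip1*, among these 7, passed the filter only through sh*Pax6* NMDA and so is no support for this count.

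**Figure D3:**
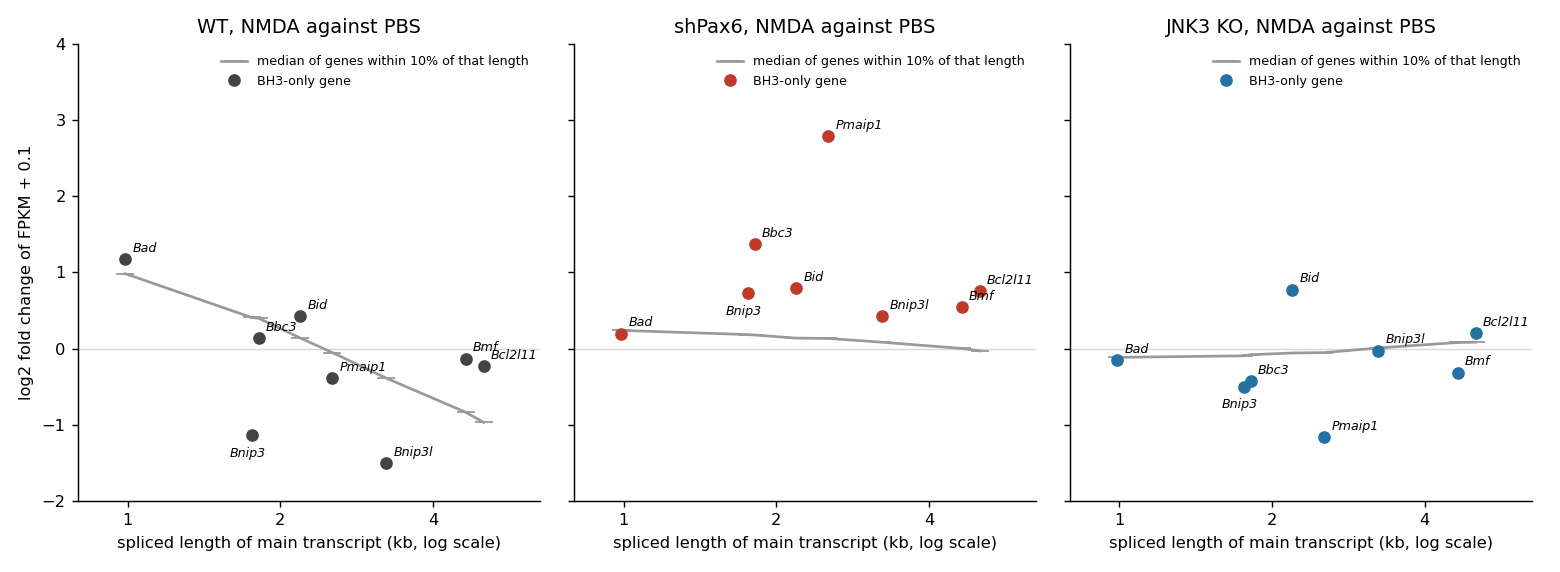
Log2 fold change of FPKM + 0.1, NMDA against PBS (vertical axis), of the 8 BH3-only genes tested against the spliced length of their main transcript in kb (horizontal axis, log scale), in WT, sh*Pax6* and JNK3 KO retinas. Grey marks joined by a line are the medians of all tested genes within 10% of each member's length. In WT the grey line falls from 0.98 at the length of *Bad* to -0.97 at that of *Bcl2l11*, with the gene values of *Bnip3* and *Bnip3l* below it. The 3238 nt transcript of *Bnip3l* alone changed by -0.29 in WT. In sh*Pax6* retinas the line is nearly flat and 7 members lie above it, of which *Pmaip1* passed the filter only through sh*Pax6* NMDA.

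Transcript values show where the changes in *Bnip3*, *Bnip3l* and *Bad* sit. Each gene value is the sum of its transcripts. For *Bnip3l*, the full-length transcript (3238 nt) went from 38.0 and 38.6 FPKM to 31.1 and 31.5 in WT (-0.29, SE 0.089, adjusted p = 0.0356 over 49940 transcripts), a much smaller fall than that of the gene. A noncoding transcript of 789 nt went from 34.0 and 29.4 FPKM to being listed at 0 in both WT NMDA libraries, and another of 354 nt from 23.2 and 21.2 to 0 and 2.17. Of the bases of these short transcripts, 95.9% and 94.1% lie in exons of the full-length one, so the division of reads between them is uncertain.

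For *Bnip3*, the full-length transcript (1756 nt) fell in WT from 76.9 and 72.4 to 47.7 and 44.7 FPKM (-0.69, SE 0.062, adjusted p = 8.42e-05), and one of 719 nt from 25.5 and 31.4 to 1.27 and 0.24. Both full-length transcripts rose in sh*Pax6* retinas, that of *Bnip3* from 67.7 and 72.2 to 130 and 124 (0.86, adjusted p = 0.000204) and that of *Bnip3l* from 37.0 and 41.4 to 49.6 and 55.5 (0.42, adjusted p = 0.0252). In WT and sh*Pax6* retinas the full-length transcripts of *Bnip3* and *Bnip3l* moved in the direction of the gene, whereas in JNK3 KO retinas that of *Bnip3l* was at 0.18 and the gene at -0.027. In WT the rise of *Bad* was in the 990 nt transcript, from 12.2 and 14.4 to 42.9 and 42.1 FPKM (1.68, SE 0.47, adjusted p = 0.0250), while one of 540 nt, with 98.7% of its bases in exons of the former, went from 1.43 and 5.26 to 0 and 0. In JNK3 KO retinas the full-length *Bnip3* transcript differed by -0.25 (adjusted p = 0.129), which did not pass. The main transcript of *Bid* also rose in sh*Pax6* retinas (1.09, adjusted p = 0.0429). Those of *Bcl2l11* (0.76, adjusted p = 0.0538), *Bbc3* (1.19, 0.0616), *Bmf* (0.31, 0.268) and *Pmaip1* (2.98, 0.240) did not pass there. For *Bmf* a noncoding transcript of 905 nt was called instead (4.74, adjusted p = 0.0414), though it passed the filter only through sh*Pax6* NMDA. As background, 35.2% of all transcripts were called in WT, 8.34% in sh*Pax6* and 1.31% in JNK3 KO retinas, and with protein-coding transcripts only the WT value of *Bnip3l* was -0.29 and still called.

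**Figure D4:**
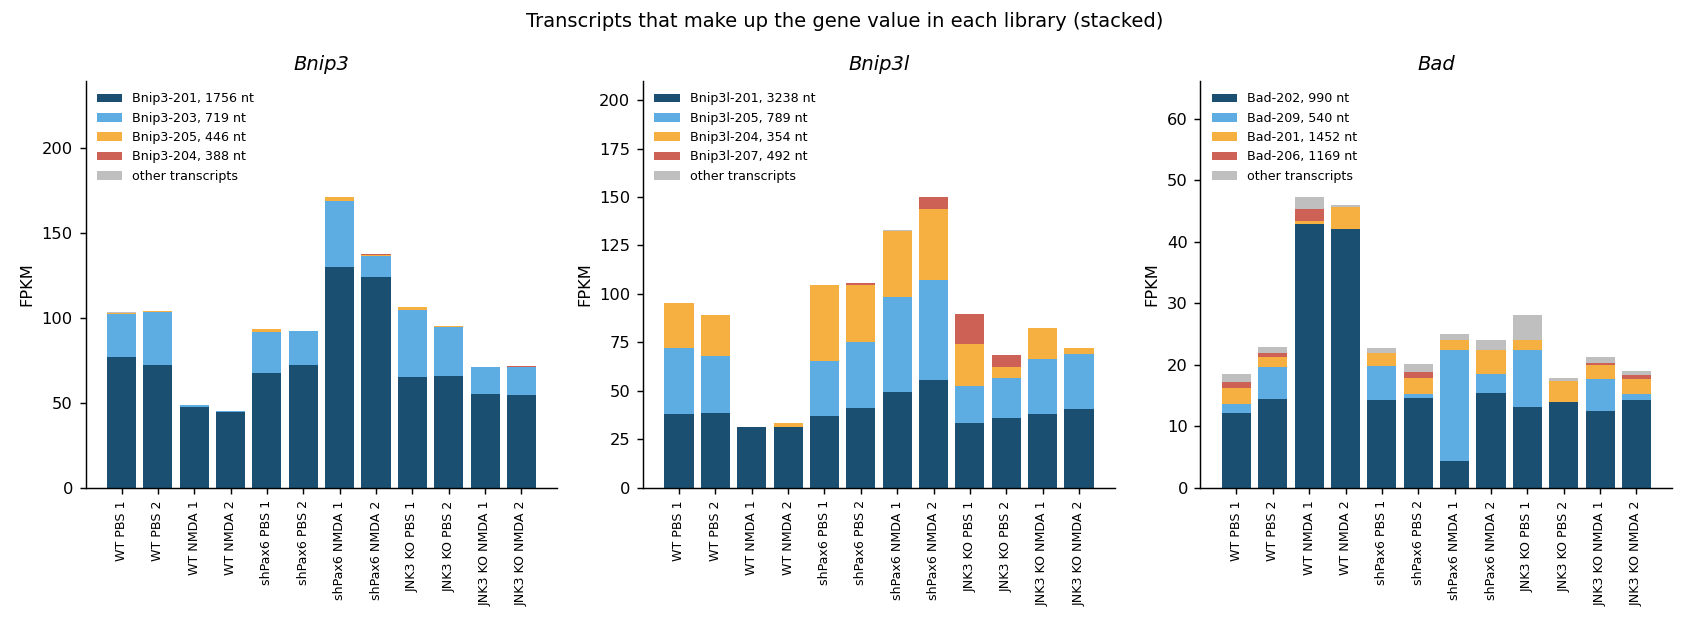
FPKM of the transcripts that make up *Bnip3*, *Bnip3l* and *Bad* (stacked bars, vertical axis from 0) in each of the 12 libraries, with the spliced length of each transcript in the key. In the WT NMDA libraries the short transcripts of *Bnip3* and *Bnip3l* are at or near 0 and the longest one makes up nearly the whole bar, and for *Bad* the 990 nt transcript reaches 42.9 and 42.1.

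In bulk tissue, fewer cells of a type and less RNA per cell cannot be told apart, and several cell type markers moved with NMDA. The summed level of 12 RGC markers went from 613-638 to 384-412 FPKM in WT, from 192-193 to 67.1-81.6 in sh*Pax6* and from 588-635 to 160.3-160.4 in JNK3 KO retinas, with 9, 8 and 8 of the 12 lower and 1 higher in WT. The median log2 fold changes of these markers were -1.835, -2.48 and -1.78, so the sums set WT and JNK3 KO further apart than the medians do. Of the WT NMDA sums *Thy1* held 136 and 154 FPKM and *Sncg* 112 and 115.5. The RGC sum was thus already lower in sh*Pax6* PBS than in WT PBS. Markers of neutrophils went from 213-236 to 1953-1990 in WT (6 of 8 higher), from 5.20-6.09 to 67.0-74.3 in sh*Pax6* (6 of 8 higher) and from 156-170 to 13.3-14.2 in JNK3 KO retinas (4 of 8 lower), with *Ly6g* and *Ngp* at 0 in all sh*Pax6* and both JNK3 KO NMDA libraries. *Ly6g*, *Mmp8* and *Ngp*, and *Alas2* among the red cell markers below, passed the filter only through WT NMDA. They are no support for the WT counts of their lists. For microglia and macrophages the sum of 8 markers went from 78.4-85.9 to 216-231 in WT, although 3 were higher (*Tyrobp* among them) and 4 lower, from 54.9-58.8 to 223-246 in sh*Pax6* (4 higher, 0 lower) and from 77.7-81.7 to 47.7-51.0 in JNK3 KO retinas (1 higher, 4 lower). Müller glia had sums of 1175-1214 and 1882-1898 in WT, but 3 of 8 markers were higher, *Vim* and *Apoe* included, and 5 lower, with a median of -0.91. Their sums were 1929-2025 and 3106-3345 in sh*Pax6* (3 higher, 3 lower) and 1292-1301 and 1489-1522 in JNK3 KO retinas (3 higher, 3 lower). Rod markers went from 32920-35620 to 20620-20990 in sh*Pax6* retinas (1 of 8 higher, 7 lower), after 8 of 8 had been higher in sh*Pax6* PBS than in WT PBS (24900-24990), from 24900-24990 to 24240-24360 in WT (4 higher, 2 lower) and from 25540-26150 to 21750-21860 in JNK3 KO retinas (6 lower). Markers of the retinal pigment epithelium went from 52.2-53.9 to 3.91-6.72 in sh*Pax6* retinas (4 of 4 tested lower), from 49.3-56.3 to 64.9-69.6 in WT (1 higher, 2 lower) and from 35.2-41.3 to 44.2-46.0 in JNK3 KO retinas (none called). Red cell markers went from 97.3-107 to 613-650 in WT (5 of 6 higher), from 28.7-50.3 to 120-129 in sh*Pax6* (4 higher) and from 123-126 to 69.4-79.7 in JNK3 KO retinas (1 lower), and amacrine markers from 542-557 to 242-249 (8 of 9 lower), from 360-369 to 102-105 (9 lower) and from 534-537 to 260-264 (3 lower). The part of these cells in the values of the BH3-only genes was not tested.

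The BCL2 guardians, which BH3-only proteins neutralize, and the pore formers moved as well. Counts after NMDA of these and the following lists, and of the markers above, are to be read beside the shares of all genes called. These were 26.0% higher and 33.8% lower in WT, 19.1% and 11.0% in sh*Pax6* and 4.33% and 6.10% in JNK3 KO retinas. No length correction was applied to the list values. WT medians of all genes ran from 0.84 under 1 kb to -1.07 over 4 kb. Of 8 guardians 4 rose and 2 fell in WT (median 0.86), 4 rose and 1 fell in sh*Pax6* (0.37) and none was called in JNK3 KO retinas (-0.049). *Bcl2a1b* rose in WT (2.37) and sh*Pax6* retinas (2.69), with *Bcl2a1d* (1.75 and 4.44) and, in sh*Pax6*, *Bcl2a1a* (4.04), although reads of these near-identical copies are hard to assign. *Bcl2* (-0.96) and *Bcl2l2* (-0.82) fell in WT, and *Mcl1*, the partner of NOXA, rose in WT (0.55) and sh*Pax6* retinas (0.59). Of the 3 pore formers, *Bax* rose in WT from 34.0 and 41.1 to 118 and 113 FPKM (1.62, SE 0.13, adjusted p = 7.07e-06) and less in sh*Pax6* retinas (0.42, adjusted p = 0.0404), where *Bak1* also rose (0.89, adjusted p = 0.0105). None of the 3 was called in JNK3 KO retinas. Of 5 other genes with a BH3 motif that were tested, *Bik* rose in WT (1.56) and sh*Pax6* retinas (2.16), as did *Bcl2l12* (0.79 and 1.56), while *Moap1* (-2.31) and *Bcl2l13* (-1.12) fell in WT.

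Of 13 genes for partners that hold, cleave or receive BH3-only proteins, 3 rose and 7 fell in WT (median -0.37), 1 rose and 4 fell in sh*Pax6* (0.17) and 3 fell in JNK3 KO retinas (-0.12). *Ywhah*, a 14-3-3 protein of the kind that binds BAD, fell in WT (-1.31), sh*Pax6* (-0.74) and JNK3 KO retinas (-0.89). In WT *Sfn* (1.51), *Mtch2* (1.15), the mitochondrial receptor for cleaved BID, and *Dynll1* (1.00), a dynein light chain, rose. *Casp8*, whose product cleaves BID, rose in sh*Pax6* retinas from 1.09 and 1.14 to 4.04 and 4.72 FPKM (1.88, SE 0.28, adjusted p = 0.000975). *Dynll2*, the anchor of BMF, fell in WT (-0.37), sh*Pax6* (-0.49) and JNK3 KO retinas (-0.22).

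Of 14 transcription factors known to act on BH3-only genes, 6 rose and 6 fell in WT (median -0.059), 8 rose and 1 fell in sh*Pax6* (0.55) and 2 rose in JNK3 KO retinas (0.091). *Jun*, at 22.5 and 20.0 FPKM after PBS in sh*Pax6* retinas, reached 56.2 and 50.8 after NMDA (1.33, SE 0.086, adjusted p = 8.23e-06), and *Fos* rose there too (2.14), whereas *Jun* lay between 21.8 and 25.4 FPKM in all WT and JNK3 KO libraries. *Myc* rose in WT (2.85), sh*Pax6* (2.97) and JNK3 KO retinas (2.19), and *Atf3* in WT (1.34) and sh*Pax6* retinas (1.4). In WT *Ddit3* rose (2.06), and *Hif1a* (-1.78) and *Mitf* (-1.91) fell. In sh*Pax6* retinas *Ddit3* also rose (0.64) and *Hif1a* fell slightly (-0.25), while *Hif1a* rose slightly in JNK3 KO retinas (0.32). Of 11 kinases of the JNK cascade 8 fell in WT (median -1.02), among them *Mapk10* (-2.65), *Map3k9* (-2.44), *Mapk8* (-1.83) and *Mapk9* (-1.50). Among these kinases 2 fell in sh*Pax6* retinas (*Map3k12* -0.50 and *Mapk9* -0.46, median -0.082), and in JNK3 KO retinas 1 rose (*Map3k5*, 0.66, median -0.075).

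Among 15 other p53 targets 5 rose and 5 fell in WT (median -0.20), 8 rose in sh*Pax6* (0.38) and 5 rose in JNK3 KO retinas (0.40). *Phlda3* (2.17), *Cdkn1a* (1.79) and *Aen* (1.47) rose in WT, where *Trp53inp1* fell (-1.77). *Eda2r* (2.53), *Tnfrsf10b* (1.98), *Fas* (1.25) and *Plk2* (0.80) rose in sh*Pax6* retinas, and in JNK3 KO retinas *Trp53inp1* (1.06), *Cdkn1a* (0.71), *Aen* (0.68) and *Phlda3* (0.55). Of 12 genes of the integrated stress response 8 rose and 1 fell in WT (median 0.92), 7 rose and 1 fell in sh*Pax6* (1.04) and 3 rose in JNK3 KO retinas (0.33). *Phgdh* (2.13), *Ppp1r15a* (1.81) and *Cebpb* (1.69) rose in WT, *Slc7a11* (2.01), *Cebpb* (1.95) and *Trib3* (1.54) in sh*Pax6*, and *Phgdh* (1.54) and *Chac1* (1.35) in JNK3 KO retinas.

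*Bnip3* and *Bnip3l* are themselves hypoxia targets, and 16 further hypoxia targets were tested. Of these, 10 rose and 0 fell in sh*Pax6* (median 0.65), 4 rose and 5 fell in WT (-0.0023) and 0 rose and 3 fell in JNK3 KO retinas (-0.16). *Egln3*, a prolyl hydroxylase induced by HIF, rose in sh*Pax6* retinas from 1.52 and 0.98 to 15.1 and 13.6 FPKM (3.45, SE 0.31, adjusted p = 5.15e-05), and *Vegfa* from 50.3 and 60.8 to 135 and 150 (1.36, SE 0.14, adjusted p = 0.000115). *Adm* (3.12) and *Pfkfb3* (1.04) also rose there. *Adm* passed the filter only through sh*Pax6* NMDA and so is no support for the count of 10. In WT *Kdm3a* (-1.78) and *Pdk1* (-1.30) fell and *Ankrd37* (1.60) and *Higd1a* (1.21) rose, and in JNK3 KO retinas *Pgk1* (-0.34), *Ldha* (-0.25) and *Ndrg1* (-0.23) fell.

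Of 14 other mitophagy genes 7 rose and 3 fell in WT (median 0.21), 4 rose and 2 fell in sh*Pax6* (-0.033) and 0 rose and 5 fell in JNK3 KO retinas (-0.23). *Tomm7* (1.99) and *Gabarap* (1.46), whose product binds NIX, rose in WT and *Fundc1*, another mitophagy receptor, fell (-1.40). *Gabarap* (0.82) and *Ulk1* (0.64) rose in sh*Pax6* retinas and *Fundc1* (-0.69) fell, and in JNK3 KO retinas *Map1lc3a* (-0.53), *Gabarapl1* (-0.37), *Map1lc3b* (-0.34) and *Pink1* (-0.30) fell. Of 16 genes for later mitochondrial and caspase steps, *Bax* and *Bak1* included, 7 rose and 4 fell in WT (median 0.40), 7 rose and 2 fell in sh*Pax6* (0.41) and 1 rose and 1 fell in JNK3 KO retinas (0.0029). *Apaf1* (1.47), the scaffold of the apoptosome, rose and the caspase inhibitor *Xiap* (-2.12) fell in WT. *Birc3* (2.12) rose in sh*Pax6* retinas, and in JNK3 KO retinas *Cycs*, which encodes cytochrome c, fell (-0.62).

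**Figure D5:**
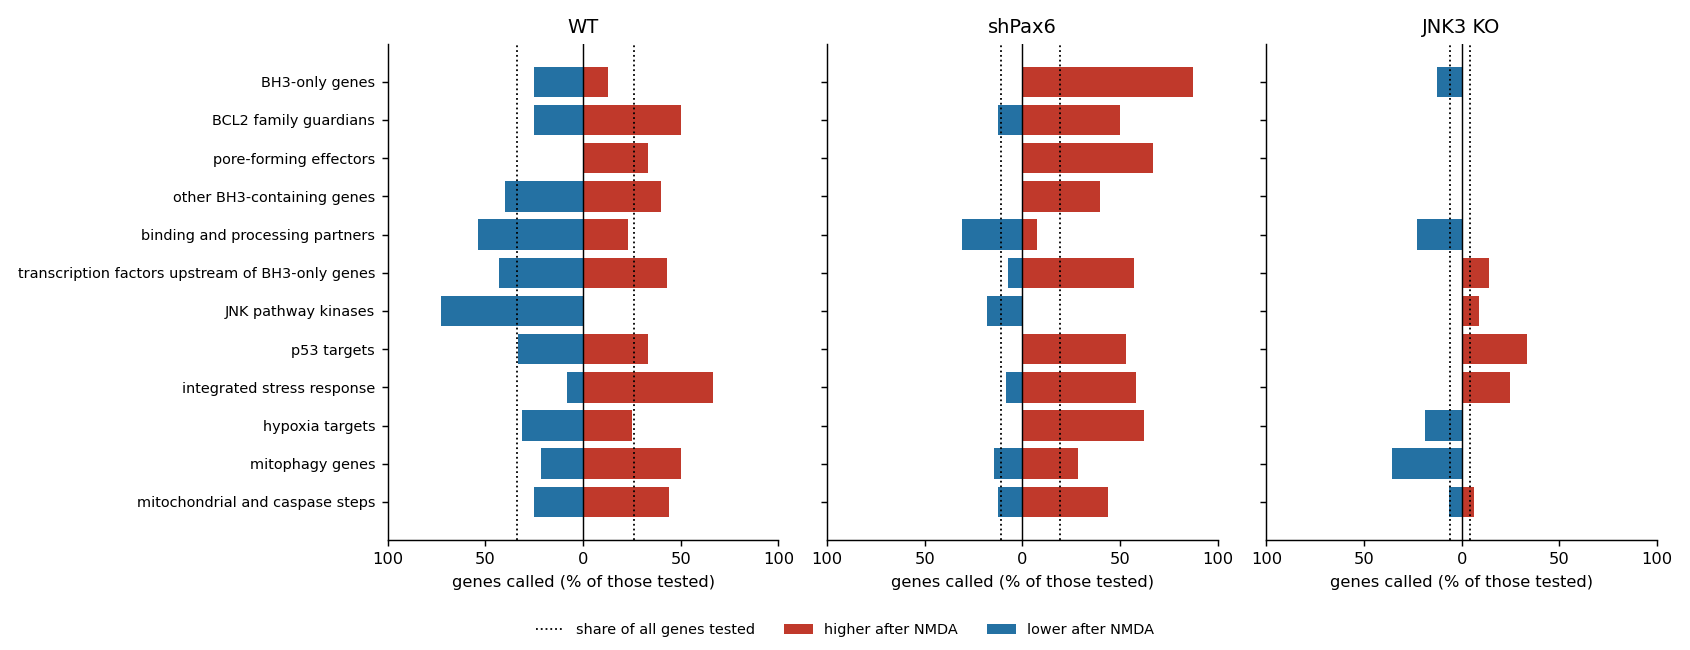
Share of tested genes called higher (right of 0) and lower (left of 0) after NMDA, in percent (horizontal axis), for the BH3-only genes and 11 lists of related genes in WT, sh*Pax6* and JNK3 KO retinas. Dotted lines give the share of all 16471 genes tested in each direction. In sh*Pax6* retinas the bar of the BH3-only genes, 7 of 8, is the longest on the right, and in WT it is shorter than the dotted lines on both sides. Of these 7, *Pmaip1* passed the filter only through sh*Pax6* NMDA and so is no support for the length of that bar.

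The genes most like each member over the 12 libraries were taken by Pearson r of log2(FPKM + 0.1), as a description, since libraries of a group and of a genotype are not independent points. For *Bnip3l* they were *Ctso* (0.990) and *Khnyn* (0.985), for *Bnip3* *Serpinb9* (0.969) and *9930111J21Rik2* (0.968), and for *Bcl2l11* *Hyal1* (0.973) and *Eif4e3* (0.971). *Bmf* was most like *Ccn2* and *C4b* (0.972 each), *Bbc3* like *Ap1b1* (0.970) and *Ubd* (0.969) and *Bad* like *Uqcrc1* and *Ndufs4* (0.966 each). *Bid* had *Tmem248* (0.922) and *Ccdc122* (0.905), and *Pmaip1* *Htatip2* (0.951) and *Clec12a* (0.943).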

How the data were processed

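RNA of whole retina was sequenced by the study. By its methods and processing notes the authors aligned the reads with STAR 2.7.1a to GRCm38.p6, estimated expression with RSEM 1.3.3 and ran a count test in R 4.1.0. The authors deposited gene and transcript tables of FPKM, and no counts were used here, so the depth of each library is unknown and no counting interval can be given. In single-transcript genes near 1 kb, the lowest value above 0 was commonly 0.04 to 0.06 FPKM.

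The genes described and the lists of related genes were chosen with earlier results of these data known. Groups were taken from the labels. Genes whose mean exceeded 1 FPKM in any of the 6 groups (16471 of 55487) were tested with limma 3.58.1 (R 4.3.3, intensity trend) on log2(FPKM + 0.1), all 12 libraries in 1 model with 6 residual degrees of freedom, with Benjamini-Hochberg adjustment over all genes and calls at an adjusted p under 0.05. Tests are two-sided. The pseudocount makes the fold change of low genes too small. The study's own test needs counts, so limma took its place. The script was tested on simulated data. Genes of each list were named where called, at most 4 by size of change. The 2 genes most correlated with each member were named, leaving out names made of Gm and a number, ending in Rik or containing -ps. The name *9930111J21Rik2* passed this rule. Replicate numbers did not pair libraries (correlation of same-numbered deviations -0.097 to 0.086 over 15 pairs of groups). Library differences within a group had a median of 0.112 to 0.252 on the log2 scale. Lengths, positions and coding sequences came from GENCODE annotation matched to 99.4% of genes and 99.1% of transcripts, and promoters from RefSeq, where 7 of the 9 genes had an entry used here. Each gene was re-estimated under other pseudocounts, filters, scalings, a length correction, a replicate block and with each library left out. Some genes of the lists are not reported here by name.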

Additional observations from a re-analysis of the deposited data

Results flagged for a closer look

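The response to NMDA differed between genotypes, by limma's test of the difference of log2 fold changes, for 10 of 16 gene and genotype pairs. Over all genes 49.7% were called for WT minus sh*Pax6* (7 of the 8 BH3-only genes) and 51.4% for WT minus JNK3 KO (3 of 8). The count of 3 is thus not above its background. That of 7 lies above its share, but includes *Pmaip1*, which passed the filter only through sh*Pax6* NMDA. It was 3 with the length correction (36.3% of all genes), and no test of the count was run. Against sh*Pax6* retinas the WT response was higher for *Bad* (0.98, adjusted p = 0.0146) and lower for *Bnip3l* (-1.94, adjusted p = 3.39e-05), *Bnip3* (-1.87, adjusted p = 1.25e-05), *Bcl2l11* (-0.99, adjusted p = 0.00301), *Bbc3* (-1.24, adjusted p = 0.0324), *Bmf* (-0.67, adjusted p = 0.0366) and *Pmaip1* (-3.18, adjusted p = 0.0373). Against JNK3 KO retinas it was higher for *Bad* (1.32, adjusted p = 0.00280) and lower for *Bnip3l* (-1.48, adjusted p = 0.000106) and *Bnip3* (-0.64, adjusted p = 0.00392). With protein-coding transcripts only the *Bnip3l* differences were -0.71 and -0.47. All 10 use the WT NMDA libraries, whose values fell with transcript length, and both sets share the WT libraries.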

How the results depend on the processing

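The calls of *Bnip3* and *Bnip3l* in WT retinas held under all 19 alternatives run, leaving out each WT library included. Of 865 values under the settings other than leaving out 1 library, 794 kept direction and side of the threshold, 52 lost the call, 13 gained one and 6 turned sign with a call on either side, besides 23 sign changes with no call. The 6 came from the length correction: *Bcl2l11* 0.69 and *Bmf* 0.69 in WT (adjusted p = 0.00391 and 0.00586; with the replicate block 0.69 and 0.69, adjusted p = 0.00725 and 0.00881) and the WT minus sh*Pax6* difference of *Bmf* at 0.18 with and without the block.

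The number of BH3-only genes called in WT was 3 and by TPM 5 (59.8% and 59.9% of all genes called under the same setting). In sh*Pax6* retinas it was 7 (30.2%), but 4 by scaling to the 75th percentile (29.6%), 4 by quantile normalization (29.7%), 0 with the spread taken from the compared libraries alone (5.93%) and 2 by the study's fold and unadjusted p criteria (15.2%). In JNK3 KO retinas it was 1 (10.4%), 0 by those criteria (4.18%) and 2 without both WT NMDA libraries (10.9%, chosen after seeing the data). For sh*Pax6* PBS it was 1 (16.5%), 0 by those criteria (5.98%), 0 with the spread of the compared libraries (5.39%) and 2 with protein-coding transcripts only (20%, chosen after seeing the data), and for JNK3 KO PBS 0 throughout. For WT minus sh*Pax6* it was 7 (49.7%), but 4 with no filter (28.3%), 3 by quantile normalization (42.5%), 3 with the length correction (36.3%), 3 with that correction and the replicate block (35.3%) and 4 by the study's criteria (34.5%). For WT minus JNK3 KO it was 3 (51.4%), by TPM 5 (51%), and 3 with the length correction (34.9%), where *Bmf* (1.09) was called and *Bad* (0.32) was not. The replicate block alone left the counts at 3, 7, 1, 1, 0, 7 and 3.

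With 1 library left out the counts ranged from 3 to 4 (WT, 50% to 62.6% of all genes), 4 to 7 (sh*Pax6*, 24.3% to 33%), 0 to 2 (JNK3 KO, 3.17% to 13.8%), 0 to 2 (sh*Pax6* PBS, 7.47% to 20.4%), 0 to 0 (JNK3 KO PBS, 0.139% to 2.47%), 3 to 6 (WT minus sh*Pax6*, 40.9% to 52.2%) and 3 to 3 (WT minus JNK3 KO, 44.2% to 54.9%). Of 288 such values 40 lost the call, 2 gained one, 0 turned sign with a call and 13 did so without. Without WT NMDA replicate 1 *Bid* was called in WT (0.69, adjusted p = 0.0319), and without sh*Pax6* PBS replicate 2 *Pmaip1* was called lower before injury (-3.21, adjusted p = 0.00631). In sh*Pax6* retinas *Bid* lost its call without either replicate 2 (adjusted p = 0.101 and 0.0881).

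Scaling moved the split of all called genes. In WT 43.5% of them were higher, but 20.9% by TPM, which moved the median of all genes from -0.094 to -0.68. In sh*Pax6* retinas 63.4% were higher, but 48.6% by the 75th percentile, 44% by quantile normalization and 47.4% with the length correction. The cause of these changes was not tested. Depth is unknown, and 2 libraries a group limit the precision.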
